A study of Solanum lycopersicum with 4 samples.

Results

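The transcripts described here encode proteins of photosynthesis and of the chloroplast, in tomato (Solanum lycopersicum) fruit that was followed from young and green to ripe. They were chosen by annotation alone. A cDNA was a member if its description held "photosystem", "chlorophyll", "ribulose", "thylakoid", "plastocyanin", "ferredoxin" or "chloroplast", leaving out ribosomal proteins, heat shock proteins and chaperones. 65 of the 5373 cDNAs in the tables met that rule. The rule uses no measured value, but it was chosen with earlier results of these data known.

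Whole fruits of the variety Ailsa Craig, grown in a greenhouse, were sampled in 4 stages: 5 days after pollination, mature green, breaker (when colour first changes) and 7 days after breaker. Each stage has 1 degradome library, so no stage has a replicate, and the labels do not say how many fruits or plants went into each. The file headers call the last stage red ripe. Degradome sequencing by PARE (parallel analysis of RNA ends) reads the 5′ end of RNA pieces that carry a poly(A) tail but no cap, so a tag marks a transcript that was cut or was being degraded. A gene's value is the total of such tags on its cDNA, in TP10M, the deposited unit of tags scaled to a common library size of 10 M tags, and it is neither an mRNA level nor adjusted for length.

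Chloroplasts in green fruit carry the same photosynthetic machinery as those of leaves. Antenna proteins bind chlorophyll and pass light energy to photosystem II, which splits water, and to photosystem I, which reduces ferredoxin. During ripening, tomato chloroplasts are known to turn into chromoplasts: thylakoids and chlorophyll are lost while the carotenoid lycopene accumulates.

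A total was given in a library only where at least 1 predicted small RNA site on the cDNA carried a tag there, and a dash stood otherwise. A missing total is therefore not a value of 0. Of the 65 members, totals in stage order were given for 55, 40, 23 and 35. These are 84.6%, 61.5%, 35.4% and 53.8% of the members, beside 69.2%, 62.9%, 35% and 55.4% of all cDNAs. 14 members had a total in all 4 libraries, 17 in 3, 12 in 2 and 22 in 1. The totals ran from 10 to 6204 TP10M at 5 days after pollination, with a median of 494. At mature green they ran from 36 to 5157 with a median of 539, at breaker from 83 to 6260 with a median of 262, and at 7 days after breaker from 35 to 6835 with a median of 536.

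Marker lists were read to check the stage labels. In the ripening list, the ethylene-forming enzyme 1-aminocyclopropane-1-carboxylate oxidase Solyc07g049530 had 553, 1374, 16973 and 11612 TP10M in stage order. In the cell division list, the tubulin Solyc08g006890 had 25330, 17962, 2902 and 1989. The lists were not uniform: at 7 days after breaker against 5 days after pollination, 4 of 9 comparable ripening cDNAs were called higher and 3 lower by the limits given below, and 1 of 32 cell division cDNAs higher and 16 lower, beside 13.7% and 23.7% of all cDNAs. Whole fruits contain seeds, and seed storage transcripts differed widely between the libraries: the 19 cDNAs of the seed list summed in stage order to 1237, 211830, 7084 and 11805 TP10M, over 2, 14, 8 and 16 listed cDNAs. The part of seed tissue in the values below was not tested. In whole fruit, fewer cells of a type and less RNA per cell cannot be told apart, nor can more transcript and faster decay.

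With 1 library per stage there is no replicate check, no error and no p-value for any difference. A cDNA was called higher or lower when both libraries had a total, the 2 totals summed to at least 50 TP10M, and they differed by at least 2-fold on the scale of log2(TP10M + 1). Such calls compare libraries. Log2 ratios are of the later over the earlier stage.

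4 members are chlorophyll-binding proteins of the light-harvesting antenna. Solyc07g047850, annotated as chlorophyll a-b binding protein 4, had 6204, 1106 and 213 TP10M in the first 3 stages, and no listed total in the last. The chlorophyll a/b binding proteins Solyc02g071010 and Solyc02g070980 had 4912, 962 and 150, and 3963, 625 and 226 TP10M at the same stages. These cDNAs have close locus numbers and the same peak values at a miR390 site, so their tags cannot be fully told apart. The last antenna cDNA, Solyc06g069730, had 325 TP10M at 5 days after pollination and no other total.

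All 3 antenna cDNAs that could be compared were lower at each step. The log2 ratio of mature green over 5 days after pollination was -2.49 for Solyc07g047850, -2.35 for Solyc02g071010 and -2.66 for Solyc02g070980. That of breaker over mature green was -2.37, -2.67 and -1.46 in the same order. Breaker over 5 days after pollination came to -4.86, -5.02 and -4.13, or 29.0-fold, 32.5-fold and 17.5-fold lower. None of the 4 had a listed total at 7 days after breaker, so their values in ripe fruit are unknown.

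**Figure D1:**
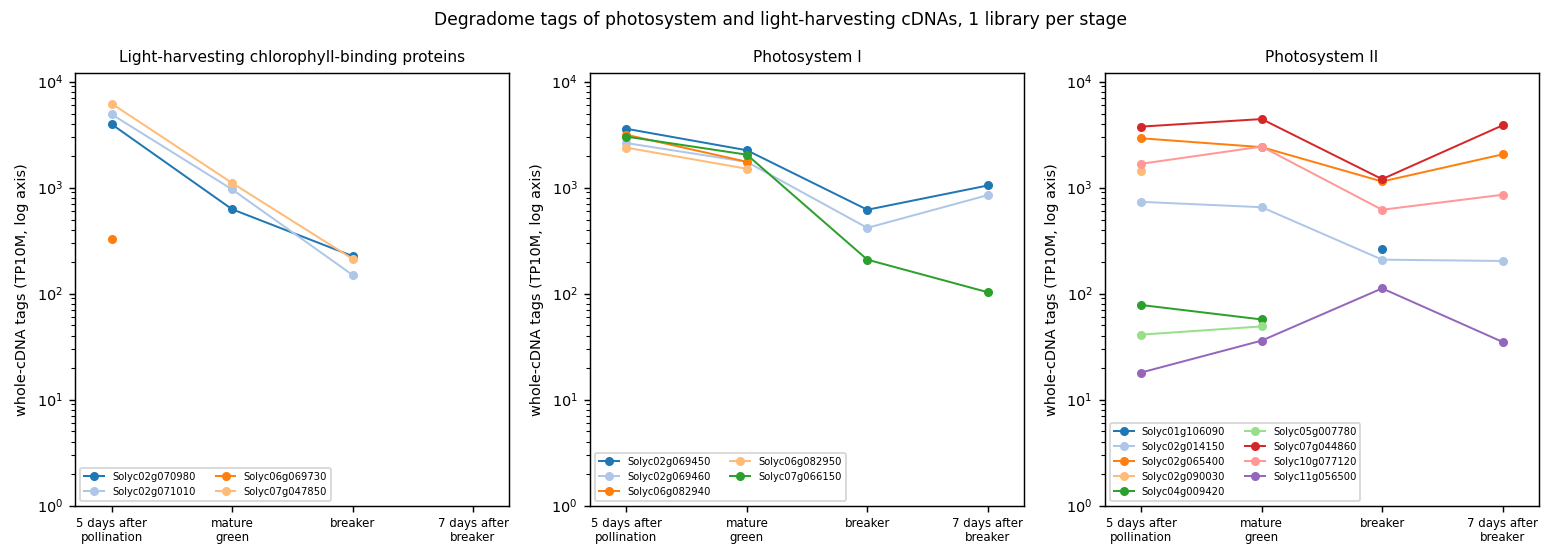
Whole-cDNA tags (TP10M, log axis) at the 4 stages (horizontal axis) for the 18 cDNAs of the light-harvesting antenna, photosystem I and photosystem II, 1 library per stage. Each point is 1 cDNA in 1 library, lines join neighbouring stages that both have a total, and a gap is a missing total. Antenna cDNAs lie between 150 and 226 TP10M at breaker, and the enhancer proteins Solyc02g065400 and Solyc07g044860 lie at 2059 and 3867 TP10M at 7 days after breaker, against 1142 and 1202 at breaker.

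Photosystem I was represented by 5 cDNAs for 3 of its subunits. Subunit III (PsaF), which helps plastocyanin to dock, is encoded by the neighbouring loci Solyc02g069450 and Solyc02g069460, with 3589, 2251, 618 and 1047 TP10M and 2632, 1748, 417 and 849 TP10M in stage order. Subunit V (PsaG), Solyc07g066150, had 3027, 2045, 209 and 103 TP10M. Subunit XI (PsaL) was listed in green fruit only. Its loci Solyc06g082940 and Solyc06g082950 had 1751 and 1507 TP10M at mature green, against 3151 and 2381 TP10M at 5 days after pollination. The PsaF cDNAs had the same peak values at their miR156_157 sites, and the PsaL cDNAs opposite position 11 of miR5302, so neither pair gives independent values.

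The order of the stages differed among these subunits. From 5 days after pollination to mature green all 5 were lower by less than 2-fold, with log2 ratios from -0.85 to -0.57. Breaker was lower than mature green for the 3 cDNAs with both totals, with -3.28 for PsaG and -1.86 and -2.06 for PsaF. At 7 days after breaker PsaG was lower again (-1.01 over breaker), which made it 29.1-fold lower than at 5 days after pollination (-4.86). The PsaF cDNAs were instead above their breaker values, by 0.76 for Solyc02g069450 and 1.02 for Solyc02g069460, and stayed under their values at 5 days after pollination (-1.78 and -1.63). In the step from breaker the median of all cDNAs was 0.46. With the median-of-ratios scaling used below, the PsaF totals went from 797 to 968 and from 538 to 785 TP10M in that step. PsaG went from 269 to 95.2.

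Photosystem II showed a shallower course, with 9 cDNAs. The oxygen-evolving enhancer proteins sit on the lumen side and stabilise the manganese cluster that splits water. Enhancer protein 1 (PsbO), Solyc02g065400, had 2920, 2410, 1142 and 2059 TP10M in stage order. Enhancer protein 2 (PsbP), Solyc07g044860, had 3762, 4435, 1202 and 3867 TP10M. Both were lowest at breaker, and in the ripe-fruit library both were close to the totals at 5 days after pollination, with log2 ratios of -0.50 and 0.04. With median-of-ratios scaling, PsbO went from 1472 at breaker to 1903 TP10M at 7 days after breaker, and PsbP from 1550 to 3575.

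The core complex protein psbY, Solyc10g077120, had 1678, 2437, 618 and 856 TP10M, and at 7 days after breaker it was 2.84-fold lower than at mature green (-1.51) and within 2-fold of 5 days after pollination (-0.97). The assembly factor Ycf48-like protein, Solyc02g014150, had 734, 653, 209 and 203 TP10M, highest in the youngest fruit and lower at each later stage, and its log2 ratio of 7 days after breaker over 5 days after pollination was -1.85. A 2nd PsbO cDNA, Solyc02g090030, had 1448 TP10M at 5 days after pollination and no other total. Enhancer protein 3, Solyc05g007780, had 49 TP10M at mature green, against 41 at 5 days after pollination. The PsbP-related Solyc04g009420 had 57 TP10M at mature green, against 78 at 5 days after pollination, and Solyc01g106090 had 262 TP10M at breaker alone.

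The photosystem Q(B) protein cDNA Solyc11g056500 went against the others. It had 18, 36, 112 and 35 TP10M in stage order, so breaker was its highest library, and its log2 ratio was 1.61 to the library of mature green and 2.57 to that of the youngest fruit. This is the name of the D1 reaction-centre protein, which land plants are known to encode in the chloroplast genome, while the locus here bears a nuclear number. Which copy its tags came from was not tested.

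Together the antenna, photosystem I and photosystem II held 18 of the 65 members. In stage order 94.4%, 83.3%, 66.7% and 44.4% of the 18 had a total, beside 69.2%, 62.9%, 35% and 55.4% of all cDNAs, a difference that was not tested. Of their 8 cDNAs with totals in all 4 libraries, both PsaF loci among them, 5, 2, 1 and 0 were highest in the stages in order. Over all 1044 cDNAs with 4 totals the shares were 39.3%, 17.4%, 13.4% and 29.9%. PsaG and the Ycf48-like protein were lower at every later stage, which held for 66 of the 1044.

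Breaker against mature green was the comparison in which the members stood furthest from the other cDNAs. Of 18 members with a sum of at least 50 TP10M in this pair, 13 were lower at breaker and 2 higher, or 72.2% and 11.1%. Of all 1394 cDNAs tested alike, 28.2% were lower and 8.68% higher. The median log2 ratio was -1.55 over the members and -0.50 over all cDNAs. The photosystem and antenna cDNAs made up 10 of the 13 and had a median of -1.88 over 11. The typical cDNA was thus also lower at breaker. The summed tags were not: the 1044 cDNAs with 4 totals had 1153286 TP10M at breaker and 1121534 at mature green. With median-of-ratios scaling, which moved the ratios of this pair up by 0.42, 10 members were lower and 2 higher with a median of -1.13, while all cDNAs had 226 lower and 202 higher with a median of -0.08. The 11 photosystem and antenna cDNAs then counted 9 lower and 1 higher. On the deposited scale, with cDNAs that shared their peak values at a site counted once, 8 of 9 were lower and 1 higher, with a median of -1.86.

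The other 2 steps showed less difference from the background. At mature green against 5 days after pollination, 6 of 34 members were lower and 2 higher, or 17.6% and 5.88%. The background was 18.6% lower and 10.4% higher among 2284 cDNAs, so the members' share of lower cDNAs was near that of all. All 3 antenna cDNAs were among the 6. The median was -0.35 over the members and -0.23 over all cDNAs, and scaling moved the split of the members from 6 lower and 2 higher to 6 lower and 5 higher. At 7 days after breaker against breaker, 4 of 17 members were higher and 3 lower, or 23.5% and 17.6%, beside a background of 23.4% and 7.26% among 1336 cDNAs. The medians were 0.47 over the members and 0.46 over all cDNAs, and scaling, which moved the ratios of this pair by -0.48, brought them to -0.01 and -0.02, with 3 members higher and 4 lower and 120 of all cDNAs higher and 182 lower.

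The comparisons over longer spans share libraries with the steps above. At breaker against 5 days after pollination, 15 of 22 members were lower and 4 higher, beside 39.9% and 13.2% of 1345 cDNAs. Scaling turned these counts to 12 and 4 members and to 321 and 267 of all cDNAs. At 7 days after breaker against 5 days after pollination, 9 of 30 were lower and 3 higher, beside 23.7% and 13.7% of 2047. At 7 days after breaker against mature green, 7 of 26 were lower and 2 higher, beside 15.6% and 10.1% of 2045. In that last comparison the median over the members was 0.02, that of the 8 photosystem cDNAs -1.07 and that of the 18 other members 0.46.

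**Figure D2:**
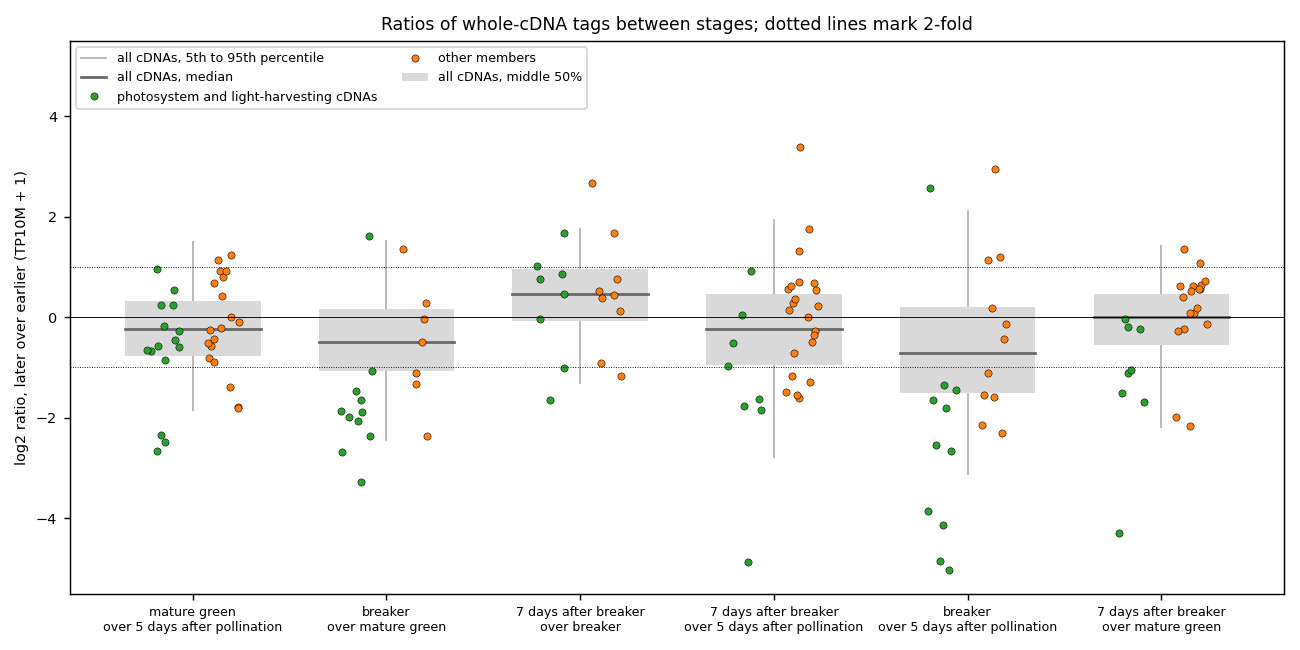
Log2 ratios of whole-cDNA tags (vertical axis, later over earlier stage, with 1 TP10M added) for 6 pairs of stages (horizontal axis), for cDNAs whose 2 totals summed to at least 50 TP10M. Green points are photosystem and antenna cDNAs, orange points the other members, grey boxes and lines the middle 50% and the 5th to 95th percentile of all cDNAs. In breaker over mature green 10 of 11 green points lie below the dotted 2-fold line, and 1 lies above the upper one.

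Electron carriers and the enzymes that draw on ferredoxin did not follow a common course. Ferredoxin-6, Solyc05g055280, had 500, 144, 370 and 163 TP10M in stage order, high and low by turns, with log2 ratios of -1.79, 1.36 and -1.18 from step to step. The PGR5-like protein 1A, which takes part in cyclic electron flow around photosystem I, has 2 cDNAs. Solyc08g007770 had 399, 699, 135 and 176 TP10M, and Solyc08g080050 had 494, 787 and 175 TP10M at 5 days after pollination, mature green and 7 days after breaker. Both were highest at mature green and lower at 7 days after breaker than at mature green, with log2 ratios of -1.98 and -2.16.

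Ferredoxin-NADP reductase, which passes electrons on to NADP, had 1333 TP10M at 7 days after breaker, against 1865 at 5 days after pollination (Solyc02g083810). Ferredoxin-dependent glutamate synthase (Solyc03g063560), which assimilates ammonium, had 764 TP10M at 7 days after breaker, against 628 at 5 days after pollination. Sulfite reductase (Solyc11g065620), of sulfur assimilation, had 723, 509 and 727 TP10M at 5 days after pollination, mature green and 7 days after breaker. The totals of these 3 cDNAs in ripe fruit lay within 2-fold of those in the youngest fruit. Enzymes of these kinds are also known to serve assimilation in tissue without photosynthesis, and a link between that role and the totals was not tested. The NADPH-ferredoxin reductase fprA, Solyc01g102490, had 213, 473 and 724 TP10M at the same 3 stages and was 3.39-fold higher at the last than at the first (1.76). A small 4Fe-4S ferredoxin cDNA, Solyc12g099270, had 93 TP10M at mature green, against 39 at 5 days after pollination (1.23).

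6 members are enzymes or regulators of pigment metabolism. The carotenoid isomerase Solyc10g081650, which brings lycopene precursors into their trans form, had 147, 1142 and 1545 TP10M at 5 days after pollination, breaker and 7 days after breaker. It was 7.72-fold higher at breaker (2.95) and 10.4-fold higher at 7 days after breaker (3.38) than at 5 days after pollination, the largest difference upward of any member in both comparisons. Zeaxanthin epoxidase, Solyc02g090890, which acts after lycopene in the carotenoid pathway, had 287 TP10M at 5 days after pollination and no other total.

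On the chlorophyll side, protochlorophyllide reductase, the enzyme that needs light, had 894 TP10M at 5 days after pollination alone (Solyc10g006900). Chlorophyll synthase, Solyc09g014760, which attaches the phytol tail, had 871, 725 and 1115 TP10M at 5 days after pollination, mature green and 7 days after breaker. Chlorophyllide a oxygenase, Solyc11g012850, which makes chlorophyll b, had 103, 138 and 114 TP10M at those stages. Both were within 2-fold between these libraries, and neither had a total at breaker. A FLU-like protein, named for a repressor of chlorophyll synthesis in Arabidopsis, had 312 TP10M at 7 days after breaker alone (Solyc06g008160).

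7 members belong to the machinery that imports proteins into the chloroplast. Tic20, a part of the inner envelope channel, had 605, 569, 553 and 933 TP10M in stage order (Solyc05g054720). The outer envelope receptor Toc34, Solyc03g095220, had 1210, 648 and 1007 TP10M at 5 days after pollination, mature green and 7 days after breaker, and the Toc90 cDNA Solyc01g111240 had 661, 445 and 403. 0 of 4 comparable import cDNAs was called in either direction at mature green over 5 days after pollination, and 0 of 3 at 7 days after breaker over 5 days after pollination. The shares called over all cDNAs were 10.4% higher and 18.6% lower in the first comparison and 13.7% and 23.7% in the second, so with so few cDNAs a count of 0 says little. Another Toc90 cDNA, Solyc09g074940, had 597 TP10M at 5 days after pollination alone. The chloroplast lumen protein Solyc09g031940 had 416, 118 and 84 TP10M at 5 days after pollination, mature green and breaker. Its log2 ratios were -1.81 and -0.49 from step to step, the latter beside a median of -0.50 over all cDNAs. Solyc09g005740 had 119 TP10M at breaker, against 361 at 5 days after pollination. Both lumen cDNAs were called lower at breaker over 5 days after pollination, beside 39.9% of all cDNAs, so with 2 cDNAs this says little.

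Among the remaining chloroplast proteins the NADP-dependent malic enzyme Solyc12g044600, which turns malate into pyruvate, had 2731, 5157, 6260 and 6835 TP10M. On the deposited scale it was higher at every later stage, 1 of the 14 members with 4 totals to do so beside 71 of the 1044 cDNAs, but with median-of-ratios scaling breaker was its highest library. It held the highest total of any member in the libraries of mature green, breaker and 7 days after breaker. Digalactosyldiacylglycerol synthase 2, Solyc01g094170, which makes galactolipids of plastid membranes, had 370, 209, 83 and 536 TP10M. It was 6.39-fold higher at 7 days after breaker than at breaker (2.68), the largest difference upward of that step. Ribulose-5-phosphate-3-epimerase, Solyc03g115820, shared by the Calvin cycle and the pentose phosphate pathway, had 765, 767, 354 and 1128 TP10M and was also higher in that step (1.67). The post-illumination chlorophyll fluorescence increase protein Solyc12g042770 had 928 TP10M at 7 days after breaker, against 439 at mature green (1.08), and adenylosuccinate synthetase Solyc02g085520, of purine synthesis, had 1064 TP10M at 7 days after breaker alone.

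**Figure D3:**
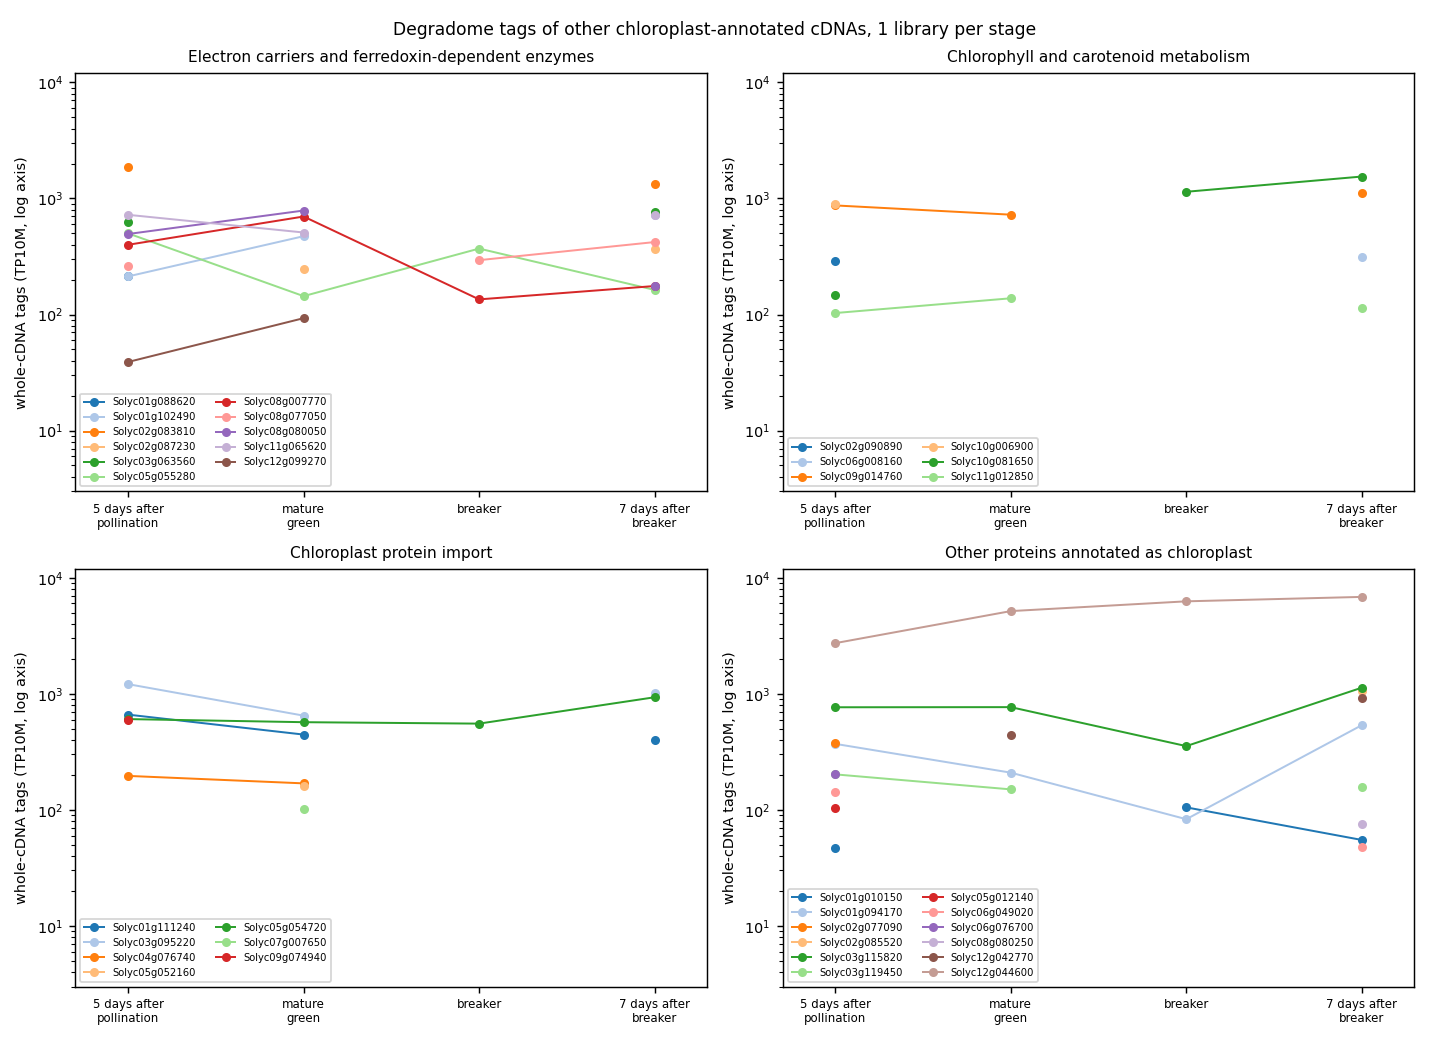
Whole-cDNA tags (TP10M, log axis) at the 4 stages (horizontal axis) for 36 members in 4 role groups outside the photosystems, drawn as in the plot of photosystem totals, with gaps where a total is missing. The malic enzyme Solyc12g044600 lies above the other chloroplast proteins with 2731 to 6835 TP10M, and the carotenoid isomerase Solyc10g081650 has 147 TP10M in the youngest fruit and 1142 and 1545 in ripening fruit.

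In 9 members the word of the rule came from a domain name only. 7 of them are blue copper-type proteins with a plastocyanin-like domain, which are known as cell surface proteins and not as carriers of photosynthesis. Solyc01g104400 had 1513 TP10M and the early nodulin-55-1 cDNA Solyc08g006790 had 980 TP10M, both at 5 days after pollination alone. Solyc01g094040 had 196, 374 and 316 TP10M at 5 days after pollination, mature green and 7 days after breaker. Enolase-phosphatase E-1, Solyc07g063040, of the methionine salvage pathway, had 681 TP10M at mature green alone. Leaving these 9 out kept every count of higher and lower members within 1.5 times. At most 2 of them had both totals in any pair of stages, and 0 in breaker over mature green, so the counts could hardly change.

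Tags on the members were not concentrated at the predicted small RNA sites. The 65 members had 172 entries under 31 small RNA names, with 55, 57 and 60 entries opposite positions 9, 10 and 11 of the small RNA. Plant microRNAs are known to cut opposite position 10. The authors' deposited table gives an alignment penalty, which is lower for better matches. It was at least 5 for 153 of the 172 entries, or 89%, beside 90% of all 12952 entries, with a median of 6.5 in both. The best match was miR5303 on Tic20 (Solyc05g054720) at a penalty of 3, with at most 3 TP10M at any of its 3 positions.

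The authors' deposited table also grades each peak from category 0, which CleaveLand gives to the single highest position of a cDNA, to category 4, a position with 1 read. In stage order, 0 of 127, 1 of 91, 0 of 39 and 1 of 78 listed peaks of the members were of category 0 or 1. Over all entries the shares were 1.25%, 1.6%, 1.56% and 1.4%. The peak at mature green was on the Q(B) protein cDNA under miR1919, at position 9, with 2 TP10M, a penalty of 7 and a deposited q-value of 0.07. The one at 7 days after breaker was on the Ycf48-like cDNA Solyc02g014150 under miR1916, at position 10, with 3 TP10M, a penalty of 7 and a deposited q-value of 0.09. A q-value was given in the authors' deposited table only beside peaks of category 0 or 1, so these 2 are the only ones among the members' entries. Over all cDNAs, 61 of 93, 63 of 106, 35 of 53 and 47 of 85 q-values were at most 0.05, in stage order.

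Peaks were also small beside the cDNA's total. Among members with at least 50 TP10M, the highest peak held a median of 0.151%, 0.0935%, 0% and 0.177% of the total in stage order, beside 0.133%, 0.124%, 0% and 0.129% over all such cDNAs. The largest share among those members was 1.92%, in the blue copper protein Solyc01g104380 at mature green, whose 52 TP10M included 1 at the peak. Peaks of 10% or more of the total occurred in 30, 35, 21 and 14 cDNAs of the libraries and in 0 members. The largest peak of any member was 16 TP10M, at 5 days after pollination on both PsaF cDNAs, opposite position 9 of miR156_157. Tags there lay at neighbouring positions as well: positions 9, 10 and 11 had 16, 10 and 8 TP10M at 5 days after pollination and 3, 5 and 1 at 7 days after breaker. On the malic enzyme cDNA, the miR5303 site likewise had 11, 13 and 14 TP10M at positions 9, 10 and 11 at 7 days after breaker.

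**Figure D4:**
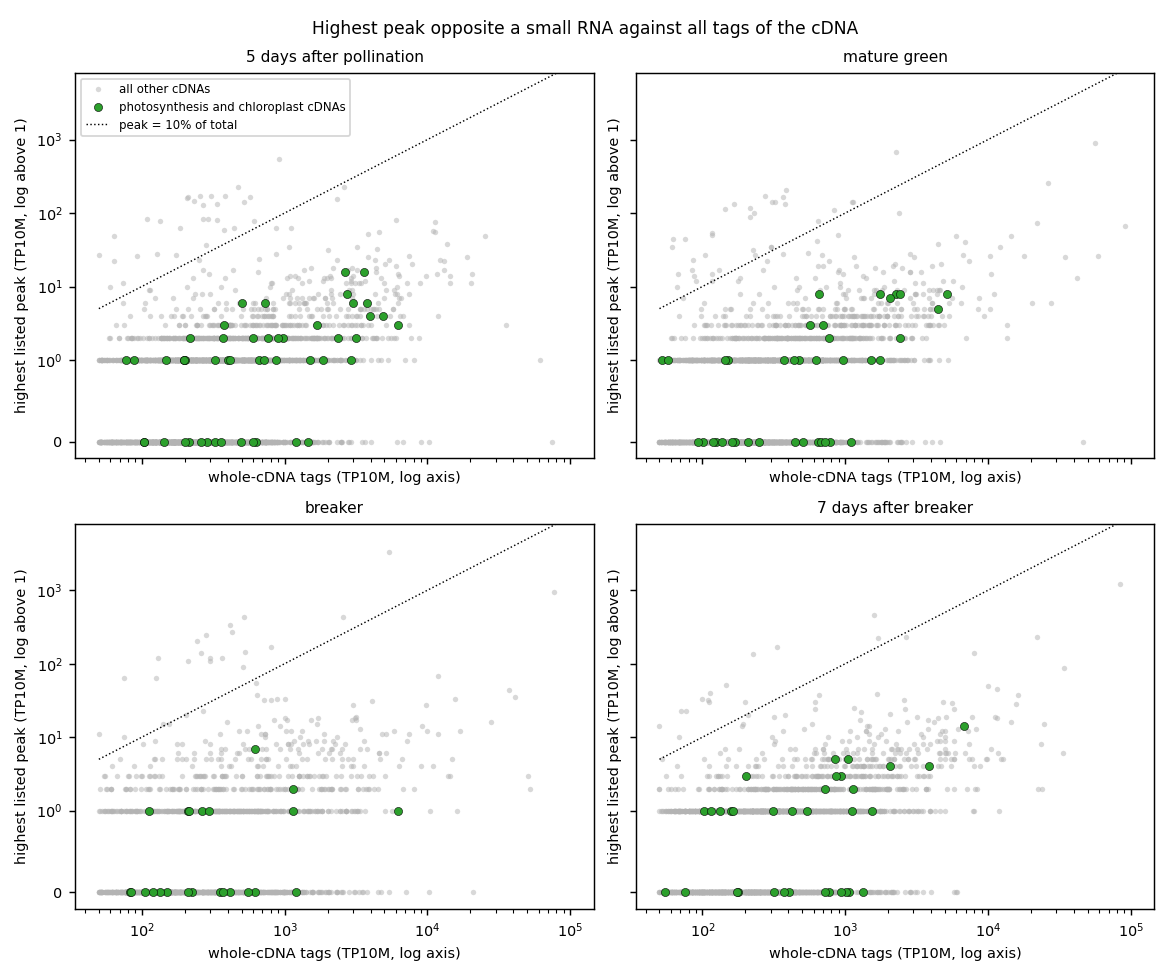
Highest listed peak (vertical axis, TP10M, linear below 1 and logarithmic above) against whole-cDNA tags (horizontal axis, TP10M, log axis) in each library, for cDNAs with at least 50 TP10M. Green points are photosynthesis and chloroplast cDNAs and grey points all others, and the dotted line marks a peak of 10% of the total. No green point reaches the line, while 14 to 35 other cDNAs in a library lie on or above it.

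Genes of neighbouring pathways outside the rule gave a mixed picture. Of 17 Calvin cycle cDNAs, 9 could be compared between mature green and 5 days after pollination, and 3 were higher and 4 lower, beside 10.4% and 18.6% of all cDNAs. The list also takes in cytosolic glycolysis, since the annotation words do not separate these pathways. Fructose-bisphosphate aldolase, Solyc02g084440, had 3477, 13625 and 8394 TP10M at 5 days after pollination, mature green and 7 days after breaker. Triosephosphate isomerase, Solyc04g011510, had 4695, 2206, 2521 and 2059 in stage order, and glyceraldehyde-3-phosphate dehydrogenase, Solyc06g071920, had 2958, 2929, 4230 and 5775. Of 5 Calvin cycle cDNAs compared between breaker and mature green, 2 were lower and 0 higher, with a median of 0.01, beside 28.2% and 8.68% of all cDNAs. The list of cytochrome b6-f and ATP synthase held 9 cDNAs, led by a vacuolar and a mitochondrial subunit. The vacuolar Solyc01g111760 had 2837, 2460 and 1325 TP10M at 5 days after pollination, mature green and 7 days after breaker. The mitochondrial Solyc11g072450 had 1722, 1008, 982 and 1456 in stage order. In the same list the ATP synthase delta subunit Solyc12g056830 had 1122, 277 and 142 TP10M at mature green, breaker and 7 days after breaker. At breaker over mature green 1 of 3 was lower and 0 higher, with a median of -0.39, beside the same 28.2% and 8.68%. At 7 days after breaker over mature green 1 of 5 was higher and 1 lower, with a median of 0.53. The shares of all cDNAs there were 10.1% and 15.6%.

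The highest total in the pigment list and that in the plastid list were each on a cDNA of carotenoid synthesis. The next 2 in each list were not. 15-cis-zeta-carotene isomerase, Solyc12g098710, an enzyme on the way to lycopene, had 214, 3382 and 6862 TP10M at mature green, breaker and 7 days after breaker. Plastid terminal oxidase, Solyc11g011990, which takes up electrons released in carotenoid desaturation, had 83, 180, 381 and 1200 TP10M in stage order. Of the 14 pigment cDNAs, 6 could be compared between 7 days after breaker and mature green, and 2 were higher and 1 lower with a median of 0.78, beside 10.1% higher and 15.6% lower among all cDNAs. For the 7 plastid cDNAs the count was 1 higher and 0 lower of 3. Uroporphyrinogen decarboxylase, Solyc06g048730, of the pathway to chlorophyll and haem, had 1287, 592, 209 and 1004 TP10M in stage order. Coproporphyrinogen III oxidase, Solyc10g005110, of the same pathway, had 1173, 696 and 1528 TP10M at 5 days after pollination, mature green and 7 days after breaker. Among the 9 photorespiration cDNAs, serine hydroxymethyltransferase Solyc05g053810 had 6773 TP10M at 5 days after pollination alone. Catalase Solyc04g082460 had 1585, 666, 819 and 1746 in stage order, and glyoxylate/hydroxypyruvate reductase B Solyc01g111630 had 521, 1195, 513 and 705. At 7 days after breaker against mature green 3 of 6 photorespiration cDNAs were higher and 1 lower, beside the same 10.1% and 15.6% of all cDNAs.

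Summed over all listed members, the totals were 60620, 36055, 14877 and 30578 TP10M in stage order, or 2.47%, 1.66%, 0.999% and 1.44% of the totals of all listed cDNAs. Those sums move with how many members were listed. Over the 14 members with totals in all 4 libraries they were 23730, 23560, 12282 and 18790 TP10M, or 2.03%, 2.1%, 1.06% and 1.45% of the totals of the 1044 cDNAs with 4 totals. On that fixed set breaker was the lowest library and mature green about level with 5 days after pollination. The malic enzyme alone made up 6260 of the 12282 TP10M at breaker.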

How the data were processed

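PARE tags from 1 whole-fruit library per stage were analysed in 3 tables, for peaks opposite positions 9, 10 and 11 of a small RNA. Per the file headers they hold CleaveLand output for ITAG2.3 cDNAs, and the submitters' processing notes name CASAVA 1.8.0. The sources used here give neither the aligner nor the filters. The tag values are deposited scores in TP10M, whole numbers rounded by the authors, and not read counts. Deposited p-values are CleaveLand's, with q-values from Benjamini-Hochberg correction, per the file headers. Library depth is unknown, so no counting interval is given.

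A cDNA's entries never disagreed on its total within a library. Totals were compared with Python 3.11.15 and pandas 2.3.3, a pseudocount of 1 TP10M, a minimum sum of 50 TP10M and a 2-fold limit. The code for the calls was also run on simulated totals without noise or missing values. That run checks the code and says nothing about how reliable the calls are here. No test across samples was possible. Size factors for the alternative scaling came from 1021 cDNAs with at least 10 TP10M in each library. The members, role groups, lists and limits were chosen with earlier results of these data known. The named genes include the 4 highest totals of each role group, the 5 largest called differences per direction and peaks of category 0 or 1. They also include the highest total per library and the largest courses in 1 direction. Of each pathway list outside the rule the 3 highest totals are named. Of the ripening and cell division lists only the highest is named. Other members named were added after their values were seen. Role groups were written from the annotations. Locus numbers had no match in the RefSeq table used here, so no coordinates or sequences are given. No member was annotated as a Rubisco subunit, so these were not analysed here.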

Additional observations from a re-analysis of the deposited data

How the results depend on the processing

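No paired analysis was possible because each stage has 1 library. Counts below are of members higher and lower, for the pairs mature green over 5 days after pollination, breaker over mature green, 7 days after breaker over breaker, 7 days after breaker over 5 days after pollination, breaker over 5 days after pollination, and 7 days after breaker over mature green. As reported they were 2 and 6, 2 and 13, 4 and 3, 3 and 9, 4 and 15, and 2 and 7. With a 4-fold limit they were 0 and 3, 0 and 5, 1 and 0, 1 and 1, 2 and 8, and 0 and 2. With a missing total read as 0 they were 8 and 24, 7 and 34, 21 and 9, 8 and 30, 5 and 44, and 10 and 20, and the medians of the second to the fifth pair were -2.98, 1.35, -1.39 and -6.71. With the position 10 table alone the changed counts were 1 higher in the first pair, 0 and 8 in the second, 0 lower in the third, 1 and 5 in the fourth, 1 and 9 in the fifth, and 0 and 4 in the last. A minimum sum of 200 TP10M gave 1 higher in the first pair, 1 in the second and 2 in the fifth. Without the word chloroplast 1 was higher in each of the last 3 pairs. Median-of-ratios scaling gave 5 higher in the first pair and a median of -1.03 in the fifth, where it moved ratios by 0.54.

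The other medians stayed within 0.5 of the reported value on the log2 scale and the other counts within 1.5 times, under these settings and under pseudocounts of 0.5 and 5 TP10M, minimum sums of 10 TP10M or none, identical totals counted once, and the lowest total of a cDNA taken. The same held with cDNAs that shared their peak values at a site counted once and without the 9 domain-name members, both chosen after seeing the data. Some of these settings could not change a result. Every compared member already summed to at least 50 TP10M, so lower minimum sums added none. The lowest total was the total used, since entries never disagreed. At most 2 of the domain-name members entered any pair. The sums over members with 4 totals (23730, 23560, 12282 and 18790 TP10M) differ from those over all listed members because fewer cDNAs enter. Depth is unknown, and totals missing in a library limit most comparisons: the 3 antenna cDNAs with totals up to breaker have none at 7 days after breaker.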
